A study of Mus musculus with 6 samples.

Results

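The S100 genes encode small calcium-binding proteins, and 8 of them were followed here in sensory neurons with and without Dicer: S100a1, S100a4, S100a6, S100a10, S100a11, S100a13, S100a16 and S100b. They were taken by gene name from a table of 31469 rows of transcript levels. Each name had 1 row, and all 8 rows averaged 1 TPM or more across the libraries, the level required for testing. TPM is a transcript's share of the library corrected for transcript length, so levels can be compared between genes. The family was chosen by its TPM difference between genotypes in these same libraries, with the rise of S100a6 known beforehand. The differences of the 8 genes between genotypes are therefore given as a description, and their p-values come from a fit of the whole table and support nothing beyond it.

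RNA came from C57BL/6 mice aged 21 days (postnatal day 21), from neurons of the lumbar 4 dorsal root ganglion that make parvalbumin. In this ganglion, which houses sensory neurons, parvalbumin is found mainly in proprioceptors, the neurons that sense muscle stretch and force. There were 3 wild-type libraries and 3 libraries with a knockout of Dicer, the enzyme that matures microRNAs, driven by parvalbumin (pvalb). A deletion driven in this way acts in any cell that makes parvalbumin and not before it does so. The labels do not say whether the wild-type mice carried Cre, whether each library was a separate animal, or whether cells were pooled. The spread between these libraries may therefore be technical. Each SE and p-value rests on that spread after the whole-table fit has drawn it toward the spread of rows of similar level.

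S100 proteins each carry a pair of EF-hands, the loop motif that binds calcium, and most work as dimers that open a binding surface for partner proteins when calcium rises. S100a10 is the exception, since its loops no longer bind calcium and it works bound to annexin A2. In the nervous system S100b is best known from glia, while several S100A genes are expressed in sensory neurons.

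Whole-library values that bear on these genes were as follows. Dicer1 ranged from 26.0 to 48.7 TPM in wild type and from 20.8 to 24.0 TPM in knockout. Such a value over the entire gene does not check the deletion. Pvalb, which marks the collected cells, lay between 19.7 and 25.1 TPM and between 3.69 and 13.98 TPM. Replicate 3 of each group had the Y-linked Ddx3y (33.3 and 32.7 TPM) and almost no Xist, the reverse of the other 4 libraries. Of 13787 rows tested with limma, 256 were higher and 437 lower in knockout libraries after adjustment (5.03% of rows in all), and 375 and 385 after median-of-ratios rescaling. Sequencing depth is unknown, because TPM does not keep it.

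The annotation places 7 of the 8 genes on chromosome 3 (GENCODE vM21, build GRCm38, equal to mm10) and S100b on chromosome 10 (76253853 to 76261159, plus strand). On chromosome 3 they form a main cluster and a distant pair. S100a1 (90511034 to 90514392, minus strand) and S100a13 (90514435 to 90524581, plus strand) stand back to back, with 42 bases between their outermost starts. S100a16 (90537254 to 90543151), S100a4 (90603771 to 90606045) and S100a6 (90612882 to 90624181) follow on the plus strand. S100a11 (93520488 to 93526287) and S100a10 (93555080 to 93564643) form the distant pair, also on the plus strand. S100b overlaps Dip2a on the opposite strand, which was at 16.5 to 32.6 TPM, and S100a4 overlaps the gene model Gm42674 on its own strand. The sources used here do not say whether strand was used in counting.

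In all, 3 stretches of upstream sequence are shown, because they belong to genes of the main cluster whose knockout values all lay above their wild-type values. They come from RefSeq's promoter windows on GRCm38.p6, which exist for 7 of the 8 genes, S100a10 excepted. Capitals mark matches, on either strand, to 4 motifs: the TATA box (TATAAA), AP-1 (TGANTCA), the CCAAT box (CCAAT) and the GC box (GGGCGG).
Between S100a1 and S100a13, chr3:90514393-90514434, plus strand: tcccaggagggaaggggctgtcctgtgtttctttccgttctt
Upstream of S100a4, chr3:90603520-90603769, plus strand: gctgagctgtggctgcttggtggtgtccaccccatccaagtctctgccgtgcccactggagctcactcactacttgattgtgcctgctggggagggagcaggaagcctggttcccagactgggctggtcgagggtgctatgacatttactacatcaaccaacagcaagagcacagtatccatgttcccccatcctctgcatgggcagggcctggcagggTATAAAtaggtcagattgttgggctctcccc
Upstream of S100a6, chr3:90612644-90612881, plus strand: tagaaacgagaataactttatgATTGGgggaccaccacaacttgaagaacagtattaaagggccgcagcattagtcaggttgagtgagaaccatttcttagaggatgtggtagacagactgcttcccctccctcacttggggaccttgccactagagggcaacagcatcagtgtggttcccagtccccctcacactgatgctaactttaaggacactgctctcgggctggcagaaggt
The 3 sequences share none of the 4 motifs. S100a4 holds a TATA box 31 bases before its start, a motif present in 13.6% of 32851 promoter windows. Those windows span 250 bases before and 50 after the start, so each is longer than the stretches shown. S100a6 holds a CCAAT box, read on the minus strand, as do 37.4% of windows on either strand. The stretch between S100a1 and S100a13, only 42 bases long, holds none of the motifs. These are matches of letters in a window, not binding sites.

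S100a10 and S100b were among the most abundant transcripts in these libraries. S100a10 ranked 29th to 58th of all rows in the 6 libraries and S100b 73rd to 84th. In wild-type libraries S100a10 was highest of the 8 (1566 ± 157 TPM, SD, n = 3), followed by S100b (1273 ± 38.3 TPM), and their ranges did not overlap. S100a6 (197 ± 118 TPM) and S100a13 (149 ± 21.9 TPM) came next and overlapped with each other. S100a4 (25.9 ± 6.59 TPM) and S100a11 (15.9 ± 8.45 TPM) overlapped as well, as did S100a11 with S100a16 (14.01 ± 12.5 TPM) and with S100a1 (7.10 ± 3.87 TPM). In knockout libraries S100a6 (587 ± 98.4 TPM) stood clear above S100a13 (212 ± 16.7 TPM). The 3 most abundant of the 8 held 92.4% to 94.7% of their summed level in each library. That sum was 3645, 3074 and 3025 TPM in wild-type replicates 1 to 3 and 4131, 5321 and 4321 TPM in knockout replicates 1 to 3.

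**Figure D1:**
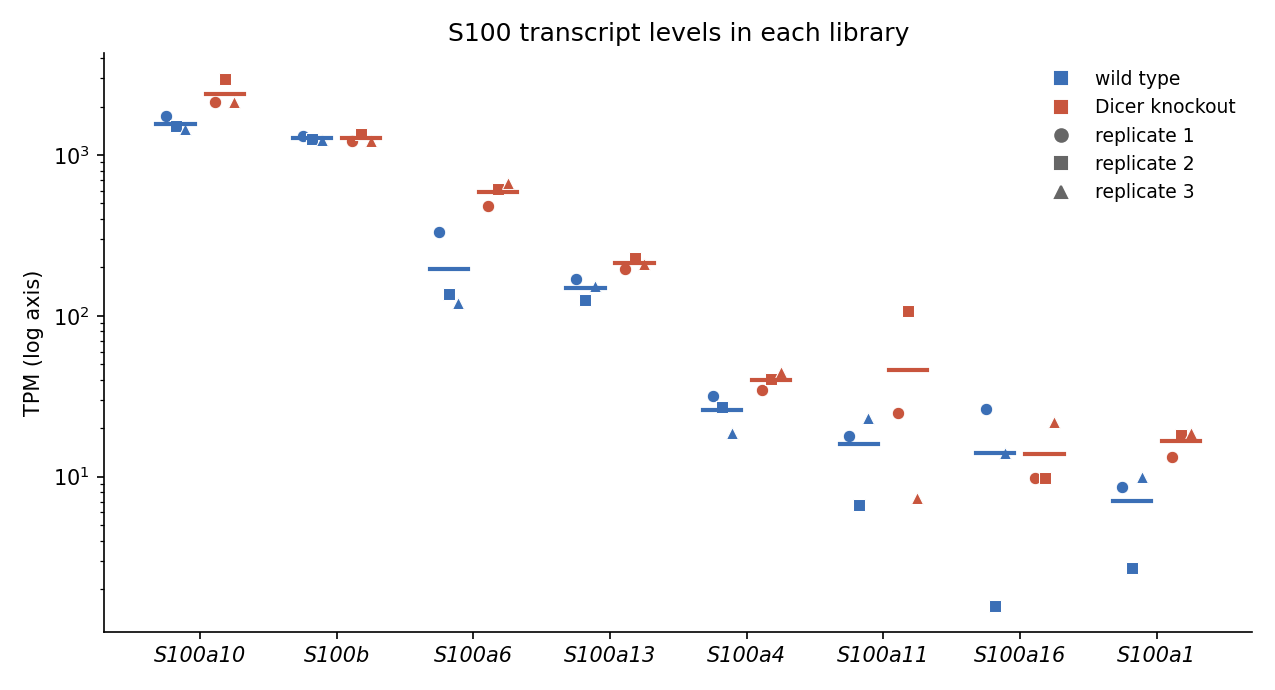
TPM of each S100 gene on a log axis, with 1 point per library, shapes for replicate numbers and lines at group means; blue is wild type and red is Dicer knockout, n = 3 each. All 3 knockout points lie above all 3 wild-type points for S100a10, S100a6, S100a13, S100a4 and S100a1, and the groups overlap for S100b, S100a11 and S100a16.

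Knockout values lay above wild-type values for most of the 8 genes, and by the most for S100a6. For 5 of the 8 every knockout library was above every wild-type library, and for 0 of the 8 every one was below. Over all tested rows, 11.8% had knockout values entirely above and 17.1% entirely below. One gene, S100a6, passed the whole-table test as higher, where 1.86% of rows did, and 0 passed as lower, where 3.17% did. Before adjustment, 5 had p below 0.05 as higher and 0 as lower in limma, where 1347 and 1940 of all 13787 tested rows did. Those all-row counts are the background for the unadjusted counts of the later lists too. The median difference of the 8, on the log2(TPM + 1) scale as knockout minus wild type, was 0.62, against a median of -0.05 over all tested rows. Because the list was drawn up with results of this contrast known, nothing is read from these counts.

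S100a6, also called calcyclin, binds annexins and the ubiquitin ligase adaptor Cacybp. It was at 333, 137 and 120 TPM in wild-type replicates 1 to 3 and at 479, 610 and 671 TPM in knockout replicates 1 to 3. Wild-type replicate 1 was more than the sum of the other wild-type libraries, and still below the lowest knockout library. The knockout mean was 2.98 times the wild-type mean, and the log2 difference was 1.71 (SE 0.33, limma adjusted p = 0.025). When wild-type replicate 1 was dropped it grew to 2.17 (adjusted p = 0.00374). The call was lost when any of the other 5 libraries was dropped, with adjusted p from 0.0781 without knockout replicate 3 to 0.104 without wild-type replicate 3, at differences of 1.44 to 1.85. Between these lay 0.0866 without wild-type replicate 2, 0.0919 without knockout replicate 1 and 0.0984 without knockout replicate 2. In replicates 1 and 2 of both groups, the 4 Xist-expressing libraries, the difference was 1.33 (adjusted p = 0.201). The spread of S100a6 within groups was 0.59 on the log2 scale, against a median of 0.15 for tested rows of similar level. Fitted over all 6 libraries with no intensity trend, limma gave S100a6 an adjusted p of 0.0916.

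S100a10, known as p11, carries channels and receptors to the plasma membrane together with annexin A2. Its values were 1742, 1518 and 1440 TPM in wild type and 2149, 2952 and 2128 TPM in knockout, a mean ratio of 1.54. The groups did not overlap, and knockout replicate 2 was the highest library. The log2 difference was 0.61 (SE 0.15, limma adjusted p = 0.0538), which did not pass the threshold. With testing limited to rows averaging 5 TPM or more it passed (adjusted p = 0.0421).

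S100a13, which takes part in the release of the growth factor Fgf1 from cells, was at 168, 125 and 153 TPM in wild type and at 196, 229 and 210.5 TPM in knockout. The groups did not overlap, and the 6 values lay closer together than those of S100a6. Its log2 difference was 0.52 (SE 0.13, adjusted p = 0.0602), and without wild-type replicate 1 it was 0.61 and passed (adjusted p = 0.0451). S100a1, its back-to-back neighbour, is best known as a regulator of calcium release and uptake in muscle. It was at 8.64, 2.70 and 9.96 TPM in wild type and at 13.3, 18.1 and 18.6 TPM in knockout, with wild-type replicate 2 the lowest of the 6. Its log2 difference was 1.26 (SE 0.39, adjusted p = 0.0929), and 0.76 (adjusted p = 0.133) without wild-type replicate 2. S100a4, a partner of non-muscle myosin, was at 31.8, 26.9 and 18.8 TPM in wild type and at 34.8, 40.7 and 44.6 TPM in knockout. These groups did not overlap either, though the nearest libraries were 31.8 and 34.8 TPM (log2 difference 0.64, SE 0.20, adjusted p = 0.102), and the difference was 0.35 (adjusted p = 0.397) in replicates 1 and 2 alone.

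S100b did not separate the genotypes. It was at 1317, 1255 and 1247 TPM in wild type and at 1225, 1354 and 1220 TPM in knockout, so that the groups interleaved. The log2 difference was -0.01 (SE 0.10, adjusted p = 0.969), and its sign turned with median-of-ratios rescaling (0.07). Its spread within groups was 0.07 on the log2 scale, and 9.52% of the 63 tested rows of similar level, within 0.5 log2 units, had a smaller one.

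The remaining 2 genes varied too much between libraries for a direction. S100a11, a partner of annexin A1 in the cell cortex, was at 17.8, 6.66 and 23.2 TPM in wild type and at 24.9, 107 and 7.35 TPM in knockout. Knockout replicate 2 alone stood far above the rest, and without it the log2 difference went from 0.91 to -0.04 (adjusted p = 0.526 and 0.98). S100a16, a widely expressed member, was at 26.5, 1.58 and 13.97 TPM in wild type and at 9.85, 9.77 and 21.9 TPM in knockout. Wild-type replicate 2 was far below the rest. The group means were 14.01 and 13.8 TPM, so the log2 difference of 0.44 (adjusted p = 0.759) has the opposite sign to the difference of the means, and without wild-type replicate 2 it was -0.55 (adjusted p = 0.499).

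**Figure D2:**
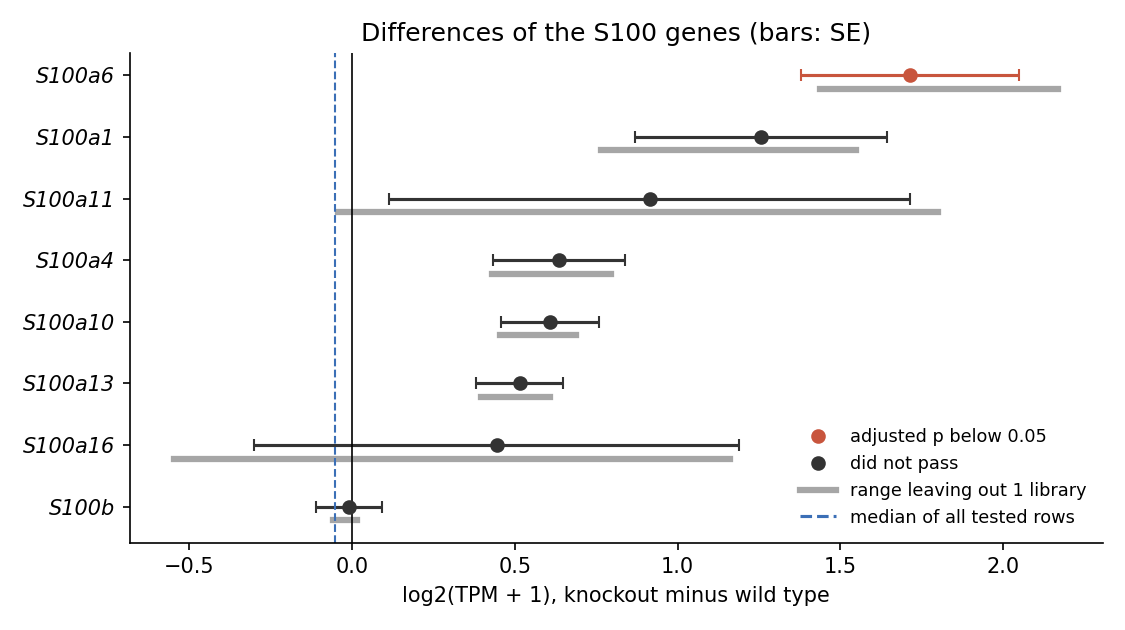
Difference in log2(TPM + 1), knockout minus wild type, for each S100 gene, with points and bars for the estimate and its SE from limma; grey bars span the estimates with 1 library left out, and the dashed line is the median of all tested rows (-0.05). S100a6 has the highest estimate (1.71), the grey bars of S100a11, S100a16 and S100b cross 0, and S100b sits at -0.01.

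Ratios between S100 genes of the same library do not depend on how libraries are scaled, and they differed unequally between genotypes. S100a10 was 1.32, 1.21 and 1.15 times S100b in wild-type replicates 1 to 3, and 1.75, 2.18 and 1.74 times S100b in knockout replicates 1 to 3. The ratio of S100a6 to S100b was 0.253, 0.11 and 0.0962 in wild type and 0.391, 0.451 and 0.55 in knockout. S100a6 was also higher relative to S100a10, from 0.0833 to 0.191 in wild type and from 0.207 to 0.315 in knockout. Between the groups, the nearest libraries in that last ratio were wild-type replicate 1 (0.191) and knockout replicate 2 (0.207). The 3 pairs were chosen with the rise of S100a6 known, and other pairs were not examined. S100a6 and S100a10 already separated the genotypes while S100b did not, so nothing further is read from the separation of the ratios.

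**Figure D3:**
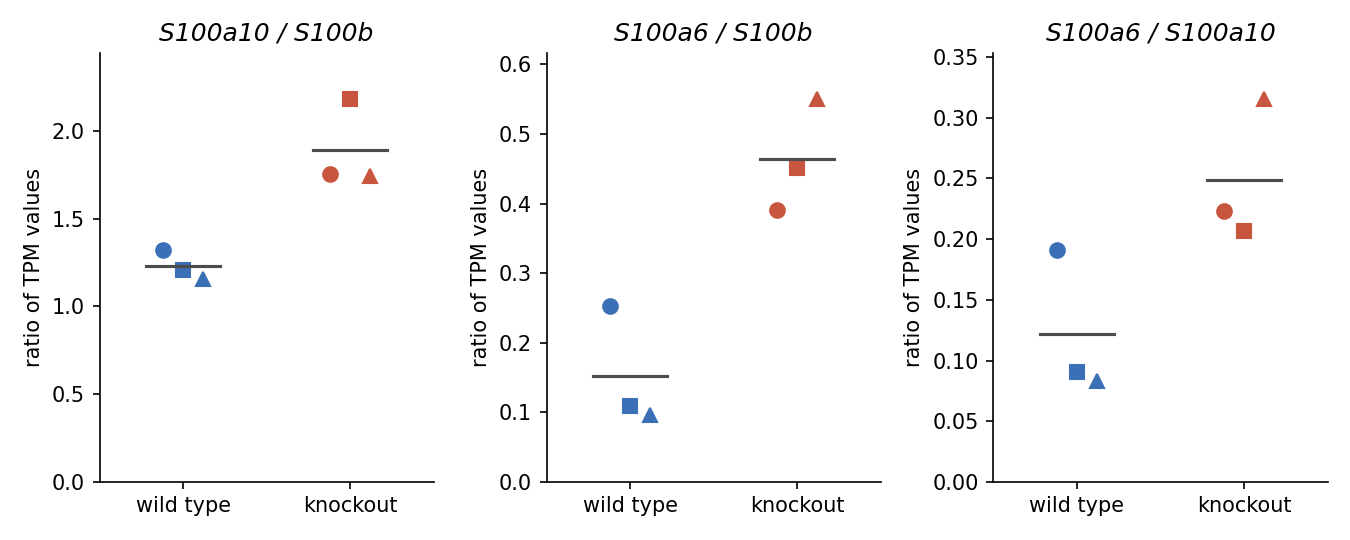
Ratios of TPM values within each library for 3 pairs of S100 genes, with axes from 0, 1 point per library (circle, square and triangle for replicates 1, 2 and 3) and lines at group means. The groups do not overlap in any of the 3 panels, and wild-type replicate 1 is the highest wild-type library in each.

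Apart from S100g, the other S100 genes in the table averaged below 1 TPM. Of 10 further family members looked for, 9 were in the table and 1 was testable. That gene, S100g, which encodes the intestinal calcium carrier calbindin-D9k, was at 7.81, 3.52 and 3.27 TPM in wild type and at 5.47, 4.94 and 4.43 TPM in knockout (adjusted p = 0.887). S100a2, S100a3 and S100a9 were listed at 0 in all 6 libraries. S100a8, which pairs with S100a9 in neutrophils, was listed at 0 in the wild-type libraries and reached 2.48 TPM in knockout replicate 2. S100a7a reached 2.19 TPM in wild-type replicate 2, S100z 3.80 TPM in knockout replicate 3, and S100a5 and S100a14 stayed at 0.49 and 0.24 TPM or less. In the main cluster such genes lie among the expressed ones: S100a3 and S100a5 flank S100a4, and S100a14 lies between S100a13 and S100a16.

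Genes next to the cluster did not share one direction. Within 100 kb of an S100 gene on chromosome 3, 15 further genes were in the table and 4 were testable. Chtop, an mRNA export factor that lies next to S100a1, fell from 181 ± 17.1 to 116 ± 19.7 TPM (SD, n = 3 each; log2 difference -0.66, adjusted p = 0.0408). Snapin, a protein of vesicle fusion, was at 148 ± 12.8 and 190.1 ± 8.43 TPM with groups that did not overlap (0.36, adjusted p = 0.0886). Ilf2 and Ints3 differed by -0.19 and -0.01 with overlapping groups. The 4 genes counted 0 higher and 1 lower call, where 1.86% and 3.17% of all tested rows were called. At an unadjusted p below 0.05, 1 was higher and 1 lower.

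**Figure D4:**
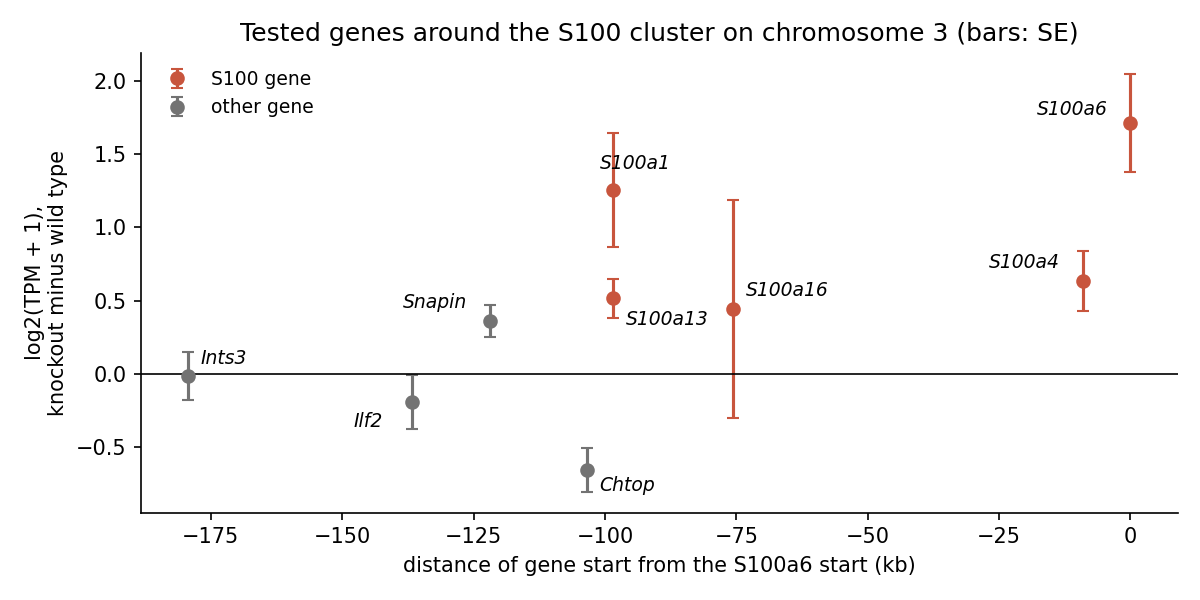
Difference in log2(TPM + 1), knockout minus wild type (bars are SE), against the distance in kb of each gene's start from that of S100a6, for the tested genes of the main cluster on chromosome 3. The S100 genes are above 0 (S100a16 with a bar across 0), Snapin is at 0.36, and Chtop beside S100a1 is at -0.66.

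Of the partners that S100 proteins bind, Fgf1 and Stub1 passed the test, both as lower. Of 29 partners, 26 were testable, and 0 passed limma as higher and 2 as lower, where 1.86% and 3.17% of all rows did, with 1 higher and 3 lower before adjustment (p below 0.05); the median was -0.09. Fgf1, the growth factor released with S100a13, was at 1444, 1296 and 1281 TPM in wild type and at 972, 921 and 869 TPM in knockout. It fell by 0.54 on the log2 scale (SE 0.10, adjusted p = 0.0241), with groups that did not overlap. Stub1, a ubiquitin ligase that S100 proteins bind, was at 49.4, 91.5 and 74.4 TPM in wild type and at 35.8, 35.1 and 37.4 TPM in knockout, and fell by 0.93 (SE 0.21, adjusted p = 0.0391). The count of 2 partners called lower dropped in 11 of 17 alternatives, to 0 in 9 of them. Anxa2, the annexin that holds S100a10, was at 777.5, 904.5 and 723 TPM in wild type and at 959.5, 927 and 940 TPM in knockout. All of its knockout values were higher, by 0.24 (adjusted p = 0.233), and Anxa2 was chosen for mention after its values were seen. Ager, the receptor for secreted S100 proteins, also named outside the rule, reached 0.70 TPM in 1 wild-type library and was listed at 0 in the other 5.

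Of the membrane proteins that S100a10 is known to carry, the gene of 1 passed the test, as lower. Of 7 such genes 5 were testable, and 0 passed as higher and 1 as lower (1.86% and 3.17% of all rows), with 2 higher and 1 lower before adjustment (median 0.34). Asic1, an acid-sensing channel, was at 154, 147 and 138 TPM in wild type and at 71.5, 60.8 and 83.4 TPM in knockout, and fell by 1.02 (SE 0.14, adjusted p = 0.00558). Scn10a, the sodium channel of nociceptors, was at 7.38, 7.44 and 0 TPM in wild type and at 13.4, 17.1 and 14.1 TPM in knockout (1.93, adjusted p = 0.144), named here after its values were seen.

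Other EF-hand genes gave calls in both directions. Of 30 such buffers and sensors 26 were testable, and 3 rose and 6 fell, where 1.86% and 3.17% of all rows did, with a median of -0.17. Kcnip2 and Kcnip1, subunits of A-type potassium channels, had log2 differences of -3.63 and -2.28 and fell (adjusted p = 0.00945 and 0.00311). Of the same family, Kcnip3 rose by 0.97 (limma adjusted p = 0.0127), and Kcnip4 differed by 0.01 (limma adjusted p = 0.972). Pvalb fell by 1.73 (adjusted p = 0.0452), and Necab1, a neuronal calcium-binding protein, rose from 122 ± 27.4 to 304 ± 60.8 TPM (1.31, adjusted p = 0.01). The difference between the S100 list and the other EF-hand list was not tested.

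**Figure D5:**
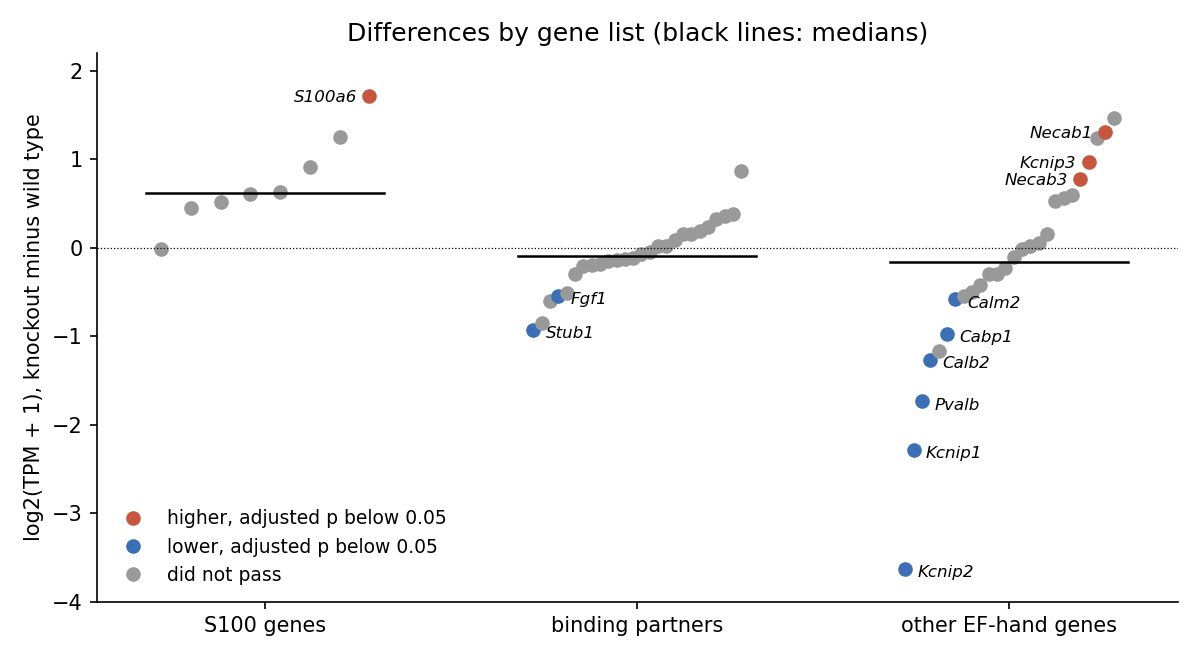
Difference in log2(TPM + 1), knockout minus wild type, for the tested S100 genes (8), their binding partners (26) and other EF-hand genes (26), 1 point per gene, with black lines at list medians (0.62, -0.09 and -0.17). Red and blue points are calls at an adjusted p below 0.05, higher and lower, with 1 red point among the S100 genes, 2 blue among the partners, and 3 red and 6 blue among the EF-hand genes.

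MicroRNA sites were searched because the deleted enzyme makes microRNAs. The longest annotated 3' UTR of each of the 8 genes was between 85 (S100a13) and 1091 bases (S100b), against a median of 1261 over 11519 tested genes. A 7-base match to the seed, bases 2 to 8, of 14 microRNAs was looked for. S100a16 held the only matches, 1 for miR-128-3p and 1 for miR-16-5p, which 23.3% and 25.5% of genes hold. The mature microRNAs are shown with the seed in capitals and the sites with the match in capitals, the sites as DNA.
mmu-miR-128-3p: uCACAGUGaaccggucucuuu
S100a16 site for miR-128-3p: atcaaggcCACTGTGgtagtg
mmu-miR-16-5p: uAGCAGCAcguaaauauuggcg
S100a16 site for miR-16-5p: ggtgagctTGCTGCTtgaggt
The UTRs of S100a6, S100a10, S100a13, S100a4 and S100a1, the genes with knockout values above wild type, hold none of the 14 sites, nor do those of S100a11 and S100b. Those of the first 5 are only 85 to 294 bases long, which leaves little room for a match. Each of the 14 sites was held by 8.42% to 25.5% of all genes searched. Nothing is read from the absence of sites. A match is a description of letters, and microRNA binding was not measured.

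Markers of other cells that could carry S100 transcripts were present in these libraries, some at different levels in the genotypes. The row most like S100a6 over the 6 libraries, among 9859 rows of at least 5 TPM with a symbol, was Scn11a, a nociceptor sodium channel, at 8.37, 2.10 and 1.71 TPM in wild type and at 10.9, 9.63 and 10.99 TPM in knockout. Its root mean square distance to S100a6, on centred log2 values, was 0.24. Next came Prdm12 (0.36), a regulator of nociceptor development, and Nmb (0.36), a neuropeptide gene. All 3 shared the high value of wild-type replicate 1, as did S100a6. The choice by likeness to S100a6 favours such rows, so nothing is read from this. The summed level of 10 peptidergic nociceptor markers was 399, 277 and 152 TPM in wild-type replicates 1 to 3 and 256, 294 and 226 TPM in knockout replicates 1 to 3, with Trpv1 at 0 in 5 of 6 libraries; 1 of 9 tested rose and 2 fell (4 higher and 2 lower before adjustment). Their median difference was 0.92, with 7 of the 9 above 0, and Calca was the most abundant of the 10 in every library. The summed level of 6 non-peptidergic markers was 62.6 to 87.8 TPM in wild type and 124 to 204 TPM in knockout. Mrgprd was at 0 in the wild-type libraries and at 3.99 TPM or less in knockout. Of 3 tested, 1 rose and 0 fell (2 higher and 0 lower before adjustment). The called gene, Gfra2, alone went from a mean of 39.6 TPM in wild type to 110 TPM in knockout. Over all tested rows, 1.86% were called higher and 3.17% lower. In bulk samples, fewer cells of a type and less RNA per cell cannot be told apart.

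Satellite glia wrap the neurons, and S100b is a known marker for them. Their 14 markers gave summed levels of 1404 to 2629 TPM in wild type and 861 to 1458 TPM in knockout, none of them at 0 in all libraries. Of these markers 0 rose and 2 fell, where 1.86% and 3.17% of all tested rows did, the larger fall being that of Fabp7. Before adjustment 1 was higher and 6 were lower. The median log2 difference of the 14 markers was -0.61, with 13 below 0. S100b stayed between 1220 and 1354 TPM across those same libraries. With the satellite glia level as a further term, the difference of S100a6 was 1.66 (adjusted p = 0.102) and that of S100a10 was 0.45 (adjusted p = 0.23). Those of S100a4 and S100a11 were also smaller than without it, at 0.48 and 0.55. Those of S100a1, S100a13 and S100a16 were larger, at 1.80, 0.58 and 1.60, and that of S100b was -0.05. No S100 gene was called in this fit, which called 77 of all rows higher and 101 lower, against 256 and 437 without the term. The term itself varied with genotype. Its mean log2 levels were 5.14, 4.49 and 5.81 in wild-type replicates 1 to 3 and 4.49, 3.92 and 4.88 in knockout replicates 1 to 3. Nothing is therefore read from the loss of the S100a6 call. Fibroblast markers, 7 genes, summed to 22.9 to 49.9 and 28.3 to 55.3 TPM, and macrophage markers, 9 genes, to 6.02 to 8.76 and 3.99 to 6.07 TPM, with C1qa and C1qc at 0 throughout. Of 6 neutrophil markers 5 were at 0 in every library, and Mpo reached 0.09 TPM. Myelinating Schwann cell markers, 9 genes, summed to 29.8 to 38.3 and 23.3 to 35.4 TPM, and endothelial and mural markers, 8 genes, to 14.6 to 21.4 and 19.5 to 31.2 TPM. The part of these cells in the S100 differences was not tested.

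Markers of the labelled cells themselves were present in every library. Their lists were drawn up with earlier results of these data known, so nothing is read from the counts of calls. Over all tested rows, 1.86% were called higher and 3.17% lower. Proprioceptor markers, 11 genes, summed to 1683 to 1813 TPM in wild type and 664 to 900.1 TPM in knockout, with 1 rise and 9 falls. Low-threshold mechanoreceptor markers, 8 genes, summed to 461 to 557 and 478 to 527 TPM, with 1 rise and 3 falls, and 8 pan-neuronal markers to 55452 to 68055 and 50952 to 53007 TPM, with 1 rise and 0 falls (2 higher and 2 lower before adjustment).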

How the data were processed

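The authors deposited 1 table of TPM values with 1 column per library. Per the labels' protocols, RNA was extracted with the PicoPure kit, amplified with an Ovation kit and sheared as cDNA; amplifying small inputs makes rare transcripts noisier. RSEM 1.2.7, Bowtie2 and cutadapt are named, per the submitters' processing notes, as is the mm10 build, and the sources used here name no annotation. TPM values sum to 1000000 in each library, which ties every value to the abundant transcripts. RSEM divides reads among similar transcripts by a model, and an exact 0 may be an estimate that failed.

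Log2(TPM + 1) values were fitted with limma 3.58.1 (R 4.3.3), using an intensity trend and genotype as the only term, two-sided, for the 13787 rows averaging 1 TPM or more. Benjamini-Hochberg adjustment ran over those rows, with a threshold of 0.05, and the pseudocount shrinks the differences of low rows. With 3 libraries a group, no exact permutation p can be below 0.1, so none is given. The fit was tested on simulated normal data with spreads smoothed by limma. That does not check rows with a real spread far wider than similar rows, such as S100a6. Python 3.11.15 was used for the rest.

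The members, the lists and the pairs of genes for ratios were chosen with earlier results of these data known. Named genes were the 8 members, the other S100 genes, up to 4 called genes per further list with the largest differences (or the 2 most abundant where none was called), and the 3 rows most like S100a6; for marker lists sums are given in place of most names. Anxa2, Ager, Scn10a, Snapin, Ilf2, Ints3, Calca, Trpv1, Mrgprd, Kcnip3, Kcnip4, C1qa, C1qc and Mpo were named outside that rule, after their values were seen. MicroRNAs and promoter motifs were chosen after the values were seen. Alternatives, 17 in all, covered the pseudocount, filter, scaling, model terms, trend, rows of one name and libraries left out.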

Additional observations from a re-analysis of the deposited data

How the results depend on the processing

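Over 17 alternatives for each of the 8 genes, 118 of 136 differences kept their direction and their side of the threshold. That share comes mostly from the 7 genes not called in the main fit, which could keep their side by staying uncalled. S100a6, the only gene called, kept its call in 8 of 17 alternatives and lost it in 9. With 1 library left out, the log2 differences spanned -0.0432 to 1.80 for S100a11, reversed without knockout replicate 2, and -0.547 to 1.16 for S100a16, reversed without wild-type replicate 2. For S100b they spanned -0.0583 to 0.0169, reversed without knockout replicate 1, knockout replicate 3 or wild-type replicate 1. S100b also reversed with median-of-ratios rescaling (0.0672) and in replicates 1 and 2 only (0.00205). The cause was not tested.

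The count of S100 genes called higher (1 as reported) was 2 with a mean of at least 5 TPM and 0 with no filter, with no intensity trend, in replicates 1 and 2 only, and with the satellite glia covariate; leaving out 1 library gave 0 to 2. At an unadjusted p below 0.05 it was 4 with the glia covariate and 5 or 6 in all others. Partners called lower (2) were 1 with median-of-ratios rescaling and with the replicate block, 0 with no filter, no trend, replicates 1 and 2 only and the glia covariate, and 0 to 3 with 1 library left out, with 3 to 5 at an unadjusted p below 0.05.

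All rows called higher and lower (256 and 437) were 130 and 248 with no filter, 57 and 168 with no trend, 77 and 101 with the glia covariate, and 3 and 14 in replicates 1 and 2 only; quantile normalization gave 389 higher. Leaving out 1 library gave 33 to 329 higher and 91 to 461 lower.

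Same-numbered libraries of the 2 groups are not tied by the labels, though both replicate 3 libraries have Ddx3y and almost no Xist. Their deviations from the group means correlated at 0.0492, 0.0659 and 0.0382 over rows, and wild-type replicate 3 correlated best with knockout replicate 1. With the replicate block 188 rows were higher and 341 lower, S100a6 stayed called (adjusted p = 0.0327), and no other S100 gene was called.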

Other observations

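Genes of the S100 list differed in how steady they were between libraries of one genotype. The spread within groups of S100a11 was 1.45 on the log2 scale and that of S100a16 was 1.33, larger than in 99.7% and 99.4% of tested rows of similar level, whose median spreads were 0.23 and 0.29. For S100a6 it was 0.59, larger than in 99.2% of such rows, and for S100a1 it was 0.63 (93.3%). S100a10 (0.21), S100a13 (0.17) and S100a4 (0.29) lay at 68.9%, 60.6% and 78.0%.

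Among the 8 genes, the pair whose profiles over the 6 libraries lay closest was S100a10 and S100a13, with a root mean square distance of 0.15 on centred log2 values, and S100a4 and S100a10 followed at 0.23. The neighbours S100a1 and S100a13 were 0.54 apart, and S100a11 and S100a16 were the farthest pair at 1.53. In replicates 1 and 2 alone, 6 of the 8 genes had all knockout values above wild type, where 23.1% of all tested rows did.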
